A study of Rattus norvegicus with 6 samples.

Results

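The nuclei described here are glutamatergic neurons of the rat forebrain with unusually many transcripts of Pkhd1 and Cftr. They were chosen by counts of unique molecular identifiers (UMIs, 1 per captured transcript) in nuclei with at least 500 UMIs, 250 to 5000 detected genes and at most 5% mitochondrial UMIs. A nucleus needed at least 5 UMIs of the neuronal genes Snap25, Syt1 and Rbfox3 together, at least 1 UMI of the vesicular glutamate transporters Slc17a7 and Slc17a6 or at least 2 of Sv2b, no UMI of the GABA-synthesising enzymes Gad1 and Gad2, and at least 3 UMIs of Pkhd1 and Cftr together. Of 73649 nuclei within the limits, 20461 met the glutamatergic conditions and 147 of these also met the last one. They are called the selected nuclei below, and the other 20314 the other glutamatergic nuclei. High Pkhd1 and Cftr in the selected nuclei is thus how they were chosen and not a result.

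Each of the 6 datasets is 1 single-nucleus library from 1 hemisphere of pooled male wild-type Wistar rats, 12 weeks old and sampled 48 h after the operation. Sham L and Sham R are the left and right hemispheres of the same 4 rats, which were operated on without a filament. In permanent middle cerebral artery occlusion (MCAO) a filament closed the right artery, and the left (contra) and right (ipsi) hemispheres were taken from 3 rats with moderate (mMCAO) and 4 rats with severe (sMCAO) infarctions. The 3 groups Sham, MCAO contra and MCAO ipsi thus hold 2 libraries each, which share rats or differ in severity, so that p-values measure the spread between such libraries and not between single animals. Pairs of values are given as L and R for Sham, and as mMCAO and sMCAO for MCAO contra and MCAO ipsi.

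Pkhd1 encodes fibrocystin, a large membrane protein best known from the primary cilia of kidney and bile duct epithelium. Cftr encodes the cyclic AMP-regulated chloride and bicarbonate channel that is mutated in cystic fibrosis. Both are better known from epithelia than from neurons. Glutamatergic neurons of the cortex are arranged in layers by their targets. Extratelencephalic neurons of layer 5 send long axons to midbrain, brainstem and spinal cord, intratelencephalic neurons project within the telencephalon, and corticothalamic neurons of layer 6 project to the thalamus. Bcl11b and Fezf2 are transcription factors that specify the extratelencephalic class.

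Selected nuclei made up 0.718% of all glutamatergic nuclei. In Sham L they were 38 of 3958 (0.960%, exact binomial 95% interval 0.680 to 1.32%) and in Sham R 21 of 3787 (0.555%, 0.344 to 0.846%). Contralaterally they were 38 of 4326 in mMCAO (0.878%, 0.622 to 1.20%) and 17 of 2969 in sMCAO (0.573%, 0.334 to 0.915%). Ipsilaterally they were 29 of 4112 in mMCAO (0.705%, 0.473 to 1.01%) and 4 of 1309 in sMCAO (0.306%, 0.0833 to 0.781%). All intervals of shares and ratios here cover counting error only. The lowest share was in sMCAO ipsi and the highest in Sham L, and the shares of the groups overlapped. Pooled over its libraries, the share in MCAO ipsi was 0.799 times that in Sham (0.505 to 1.24) and 0.807 times that in MCAO contra (0.508 to 1.27), and that in MCAO contra was 0.990 times that in Sham (0.673 to 1.45). These ratios were not tested between libraries, and with 2 libraries against 2 no exact permutation test can reach a p under 0.05. With 1 library left out the ratio of MCAO ipsi to Sham ran from 0.401 (without mMCAO ipsi) to 1.10 (without Sham L), and that to MCAO contra from 0.405 (without mMCAO ipsi) to 1.063 (without mMCAO contra), so that neither kept its direction. With all glutamatergic nuclei thinned to 3000 UMIs, the share with at least 1 UMI of either gene was 3.50 and 5.13% in Sham, 2.60 and 3.38% in MCAO contra and 2.66 and 0.693% in MCAO ipsi. Unthinned it was 5.05 and 4.09%, 4.58 and 4.18%, and 4.69 and 2.52%. After thinning mMCAO ipsi lay between the contra libraries and sMCAO ipsi below all others.

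The selected nuclei were deep. Their median was 8111 UMIs, against 4497 in the other glutamatergic nuclei. By library it was 9150 and 5729 UMIs in Sham, 8862.5 and 6840 UMIs in MCAO contra and 8156 and 13303 UMIs in MCAO ipsi, and in every library it lay above the median of the other glutamatergic nuclei, by 1.55 times in sMCAO ipsi to 2.09 times in Sham L. A nucleus with more UMIs reaches 3 of Pkhd1 and Cftr more easily. No glutamatergic nucleus below 3000 UMIs was selected, 0.248% were from 3000 to 6000, 1.57% from 6000 to 9000, 4.18% from 9000 to 12000, and 5.13% from 12000 UMIs upwards. Summed over the selected nuclei, the libraries held 341253 and 125035 UMIs in Sham, 360015 and 123719 UMIs in MCAO contra and 253606 and 51909 UMIs in MCAO ipsi.

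**Figure D1:**
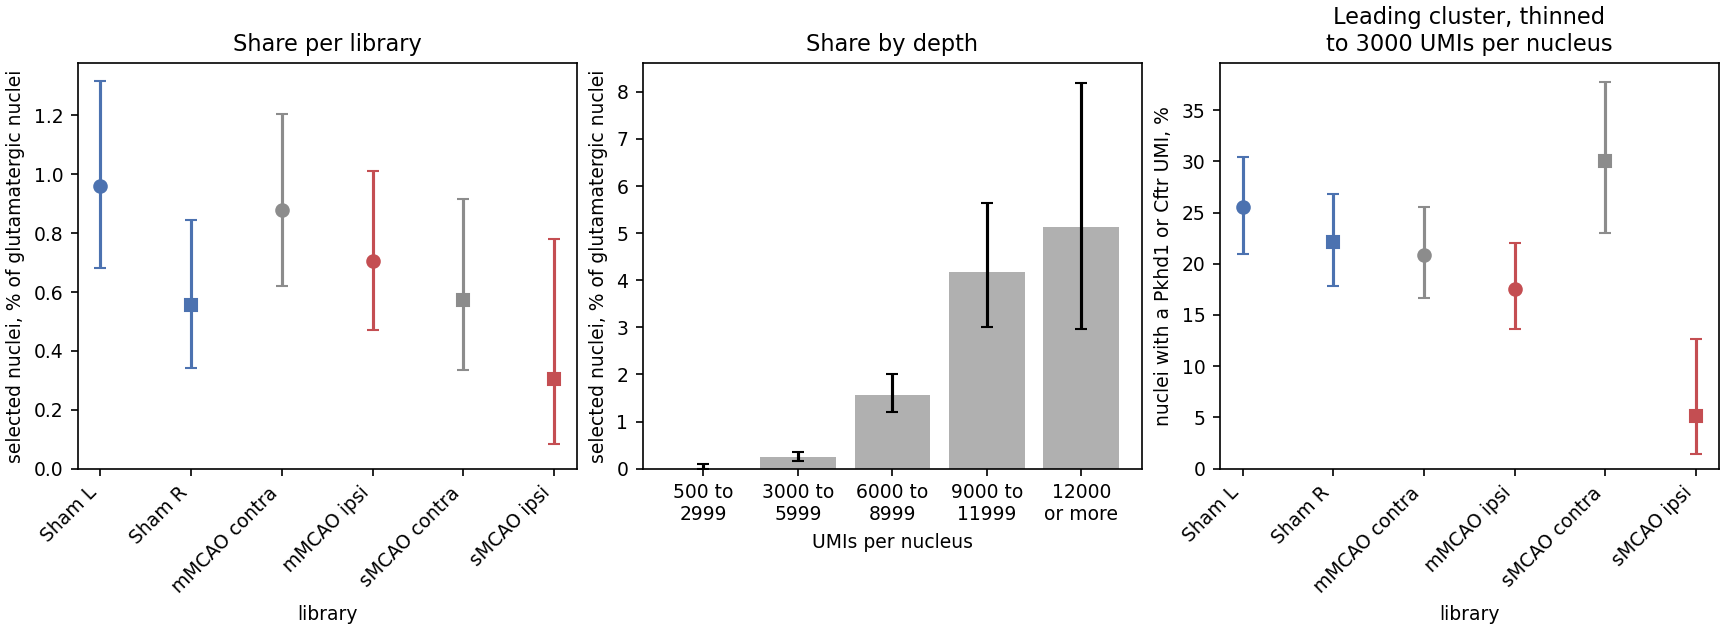
Percent of glutamatergic nuclei selected in each library (left) and by total UMIs of the nucleus (middle), and percent of leading-cluster nuclei (the cluster that holds 95.2% of the selected nuclei) with a Pkhd1 or Cftr UMI after thinning to 3000 UMIs (right), with exact binomial 95% intervals. The selected share ran from 0.960% in Sham L to 0.306% in sMCAO ipsi and rose with depth to 5.13%, and the thinned share was lowest in sMCAO ipsi at 5.13%.

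In all, 370 UMIs of Pkhd1 and 188 of Cftr were counted in the selected nuclei. Both genes were found in 68 of them, Pkhd1 alone in 61 and Cftr alone in 18. Levels are given as CPM, the UMIs of a gene per 1000000 UMIs of the summed nuclei. Pkhd1 reached 296 and 496 CPM in Sham, 239 and 364 CPM in MCAO contra and 256 and 212 CPM in MCAO ipsi, against 2.2 to 8.9 CPM in the other glutamatergic nuclei. Most selected nuclei lay close to the threshold, with 80 at exactly 3 UMIs, 34 at 4, 21 at 5 and 12 above. The 178 glutamatergic nuclei with 2 UMIs, just outside, had a median of 6490.5 UMIs, and the 80 just inside one of 7573.5. Another 36 nuclei had 3 or more UMIs of both genes together but were not selected, 20 because of a Gad1 or Gad2 UMI and 16 because they lacked the glutamate transporter and Sv2b counts. None of these 36 had fewer than 5 neuronal UMIs.

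To place the selected nuclei, all glutamatergic nuclei were clustered with the genes of the selection rule left out. Of the 147 selected nuclei, 140 (95.2%) fell into 1 of 32 clusters, called the leading cluster, and the other 7 were scattered over 7 clusters. This cluster held 1674 nuclei and 98.0 CPM of Pkhd1 and Cftr together, against 22.0 CPM in the next cluster and a median of 3.71 CPM over the other clusters. Of the 7 outside, 2 came from Sham L, 1 from mMCAO ipsi, 3 from sMCAO contra and 1 from sMCAO ipsi. At finer resolution it split into 3 sub-clusters, and sub-cluster A, with 443 nuclei, held 106 of the selected nuclei (72.1%). Sub-cluster B, with 710 nuclei, held 13, and sub-cluster C, with 521, held 21.

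Because depth enters the rule, each nucleus was also thinned to 3000 UMIs and scored for at least 1 UMI of Pkhd1 or Cftr, which left out shallower nuclei. The share was 43.4% in sub-cluster A (38.7 to 48.2%, unthinned 65.2%), 12.0% in B and 15.1% in C, and 21.6% in the leading cluster as a whole (unthinned 34.1%). In other glutamatergic clusters it was 1.12%, in GABAergic nuclei 1.11%, and in nuclei with fewer than 5 neuronal UMIs 0.375% (3 of 800). These shares are a description, since the cluster was singled out by nuclei chosen for the same genes.

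The marker lists pointed to layer 5 of the cortex, and within it to the extratelencephalic class. UMIs were summed per library over the selected and over the other glutamatergic nuclei, and the sums were compared with edgeR's quasi-likelihood test with the library as block. sMCAO ipsi, with 4 selected nuclei, was left out of the tests of the selected nuclei, which used the other 5 libraries except where all 6 are named. Genes were called when the Benjamini-Hochberg adjusted p was below 0.05 and the log2 fold change was 0.6 or more in either direction. Of 12308 genes tested, 3.19% were called higher (393) and 5.56% lower (684) in the selected nuclei, with a median log2 fold change of -0.09. Of 11 layer 5 extratelencephalic genes tested, 8 were called higher and none lower, with a median log2 fold change of 1.62.

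Among these, Bcl11b reached 240 and 184 CPM in Sham, 317 and 259 CPM in MCAO contra and 221 and 443 CPM in MCAO ipsi, against 87.1 to 124 CPM in the other glutamatergic nuclei. Its selected and other values did not overlap (log2 fold change 1.13, SE 0.11, adjusted p = 6.65e-22). Fezf2 was sparse but higher by 1.86 on the log2 scale (SE 0.35, adjusted p = 3.25e-06), and it was at 0 in sMCAO ipsi. The other called genes of the list were Parm1 (2.64), Pou3f1 (2.85), the transcriptional repressor Bcl6 (2.62), the protease inhibitor Serpine2 (2.46), Vat1l (1.62) and the LIM-domain cofactor Ldb2 (1.0). Npr3, Slco2a1 and Crym did not pass the test, with log2 fold changes of 0.84, -0.65 and -0.94, and Chrna6 was at 0. The summed level of the list was 1892 CPM in the selected nuclei and 809 CPM in the others, and it was higher in all 6 libraries. Of the 1892 CPM, 1151 CPM was Ldb2. The sum was 1894 CPM in sub-cluster A, 2272 CPM in B and 2005 CPM in C.

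The genes tested for layer 2/3 and for layer 6 corticothalamic neurons were all lower, beside 3.19% higher and 5.56% lower of all genes tested. All 7 layer 2/3 genes tested were lower, among them the transcription factors Cux1 (log2 fold change -2.01) and Cux2 (-2.40). Another of them, Glis3, was at 0 CPM in the selected nuclei of Sham L, Sham R, mMCAO ipsi and sMCAO contra. All 6 layer 6 corticothalamic genes were lower, with a summed level of 574 CPM against 2645 CPM. Of the layer 4 genes, Rorb, Thsd7a and Il1rapl2 were lower and 1 of 4 did not pass. Of the layer 6b genes, Ccn2 and Moxd1 had no UMI in the selected nuclei, and 5.86 and 4.34 CPM outside the leading cluster. They could be tested only through the other nuclei, so nothing is read from their calls as lower. Layer 5 intratelencephalic genes were split, with Etv1 higher (0.95) and Arhgap25 and Deptor lower. The near-projecting list was split too, with Vwc2l higher (0.62) and Tshz2 lower (-1.07), and so was the layer 6 intratelencephalic list, with Adamts2 higher (1.39) and Col23a1 lower (-2.08). The summed level of the layer 6 intratelencephalic list was 237 CPM in the selected nuclei and 119 CPM in the others, higher in all 6 libraries, and 227 CPM of it was Adamts2. The increase of Etv1 did not pass the test against other nuclei of matched depth (log2 fold change 0.40, adjusted p = 0.232).

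Lists of regions outside the neocortex were mostly lower or without calls, beside 3.19% higher and 5.56% lower of all genes tested. Of 6 cortex-wide genes only Tbr1 was called, and it was lower (-1.24). The claustrum list had 3 of 5 genes lower, the basolateral amygdala list 2 of 4 and the habenula list its 1 gene tested. None of 4 thalamic genes and not the 1 hypothalamic gene passed, and no dentate gyrus gene was abundant enough to test. In the hippocampal lists Mpped1 (CA1) and Pcp4 (CA2) were higher and Cacng5 (CA2) and Grik4 (CA3) lower. The summed level of the CA1 list was 81.2 CPM against 53.0 CPM and higher in 5 of 6 libraries, with Mpped1 the most abundant at 72.5 CPM. Reln, which encodes the extracellular protein reelin and stands on both the olfactory allocortex and the Cajal-Retzius list, was higher (1.38) and made up the whole Cajal-Retzius sum of 151 CPM (58.3 CPM in the others), while Ndst4 and, with no call at matched depth (adjusted p = 0.96), Abi3bp of the former were lower and Ebf3, Lhx1 and Lhx5 of the latter were at 0.

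**Figure D2:**
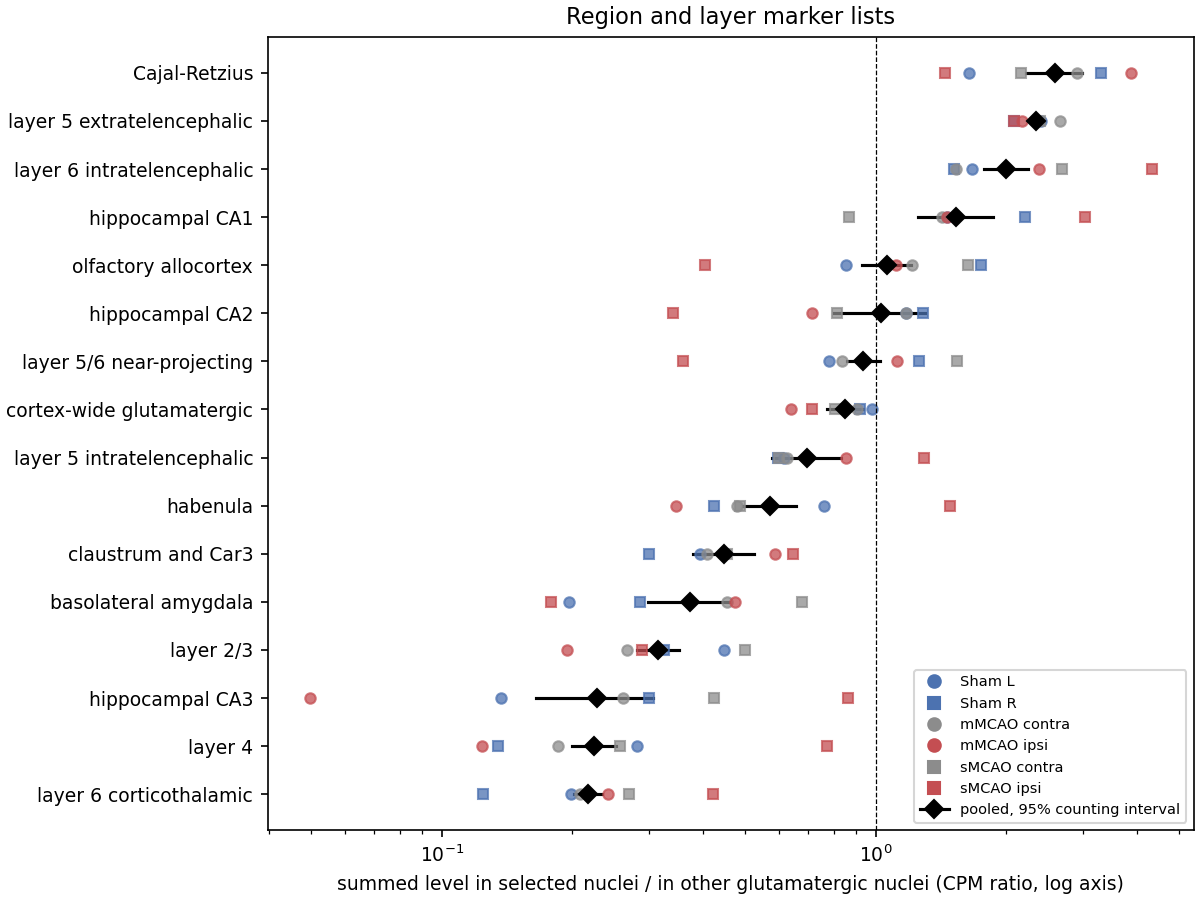
Summed CPM of region and layer lists in the selected nuclei divided by that in the other glutamatergic nuclei, on a log axis, with 1 coloured point per library and a black diamond for the pooled ratio with its 95% counting interval. The layer 6b, dentate gyrus, thalamus and hypothalamus lists, with 4, 2, 17 and 11 UMIs in the selected nuclei, are not drawn. The layer 5 extratelencephalic list lay above 1 in all 6 libraries (pooled 2.34) and the layer 6 corticothalamic list below 1 in all 6 (pooled 0.217), while the Cajal-Retzius row rests on Reln alone. Of the layer 5 extratelencephalic sum of 1892 CPM in the selected nuclei, 1151 CPM was Ldb2.

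Genes of other cell types did not rise in the selected nuclei. None of the genes tested on the astrocyte, oligodendrocyte, OPC, myeloid, ependymal, GABAergic interneuron and medium spiny neuron lists was called higher. Slc1a2, Mbp, Adarb2, Ppp1r1b and Rgs9 were called lower, beside 3.19% higher and 5.56% lower of all genes tested. Drd1 had 0 UMIs and Drd2 1 UMI in the selected nuclei. Both could be tested only through the other nuclei, so nothing is read from their calls as lower. The endothelial, mural, fibroblast and cholinergic lists had no UMI in the selected nuclei, and the choroid plexus list had 1 UMI, of Otx2. The glial sums were low, with 94.8 CPM for the oligodendrocyte list (most abundant Mbp at 51.8 CPM) and 78.1 CPM for the astrocyte list (most abundant Slc1a2 at 71.7 CPM). Of the selected nuclei 7.48% were among the 5% of each library that most resembled simulated doublets, against 6.08% of all glutamatergic nuclei. The barcodes of 19 selected nuclei (12.9%) also occurred in another library, against 8.31% of all nuclei, and no 2 selected nuclei shared one.

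Of the markers proposed along with Pkhd1 and Cftr, only Klhl1 was higher in the selected nuclei. Klhl1, an actin-binding Kelch-like protein, was at 103 and 120 CPM in Sham, 144 and 56.6 CPM in MCAO contra and 205 and 116 CPM in MCAO ipsi, against 43.4 and 51.0, 60.8 and 47.0, and 118 and 94.9 CPM in the other glutamatergic nuclei (log2 fold change 1.0, SE 0.14, adjusted p = 8.91e-11). Cwh43 had 9 UMIs in all selected nuclei, 7.2 CPM against 6.7 CPM, and was not called (-0.39, SE 0.63, adjusted p = 0.801). Within the leading cluster both were lower in the selected nuclei, Klhl1 with 129 against 246 CPM (log2 fold change -0.87, adjusted p = 1.92e-07) and Cwh43 with 7.01 against 26.2 CPM (-2.32, adjusted p = 0.000532). They marked the leading cluster and in particular sub-clusters B and C, and not the nuclei with the most Pkhd1 and Cftr.

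Among genes with at least 50 CPM and 1 direction in all 5 libraries, the increases were led by Sv2c, which encodes a synaptic vesicle glycoprotein. Sv2c was at 182 and 248 CPM in Sham, 111 and 137 CPM in MCAO contra and 162 and 57.8 CPM in MCAO ipsi, against 14.2 to 26.3 CPM in the other glutamatergic nuclei. The values did not overlap (log2 fold change 3.05, SE 0.16, adjusted p = 4.95e-78). Postn, which encodes the matricellular protein periostin, was at 93.8 and 144 CPM in Sham, 49.998 and 32.3 CPM in MCAO contra and 197 and 0 CPM in MCAO ipsi, against 3.9 to 15.5 CPM (2.91, SE 0.20, adjusted p = 2.77e-46). It varied more between libraries than Sv2c and had no UMI in the 4 nuclei of sMCAO ipsi.

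The cation channels Trpc7 (log2 fold change 2.48) and Trpc4 (1.99) were both higher. Trpc4 averaged 305 ± 51.9 CPM (SD, n = 5 libraries) against 71.9 ± 6.2 CPM. Also among the 15 largest increases of genes with at least 50 CPM and 1 direction in every library were the adaptor protein Bcar3 (2.53), the Rab5 exchange factor Rin2 (2.25), the TGF-β binding protein Ltbp1 (2.10), Tox2 (2.06), the oxysterol hydroxylase Cyp7b1 (2.05), the secretory pathway pseudokinase Fam20a (2.04), the chloride channel Clcn2 (1.94), the axon guidance molecule Rgma (1.92) and Klhl32 (1.88), besides Parm1 and Serpine2. Each was higher in all 5 libraries, and all passed the test against nuclei of matched depth as well.

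Hs3st4, a heparan sulfate sulfotransferase of layer 6 neurons, was among the 10 largest decreases of genes with at least 50 CPM in the other nuclei and 1 direction in every library. It was at 120 and 24.0 CPM in Sham, 38.9 and 323 CPM in MCAO contra and 55.2 and 366 CPM in MCAO ipsi, against 1114 to 1652 CPM in the other glutamatergic nuclei (log2 fold change -3.92, SE 0.12, adjusted p = 5.41e-213). Both sMCAO libraries were high among the selected nuclei, and no value reached those of the others. The remaining 9 of these 10 were Trabd2b (-4.21), the heparan sulfate sulfatase Sulf1 (-3.73), Palldl1 (-3.59), the transcription factor Glis3 (-3.45), the adhesion molecule Sdk1 (-3.41), Il1rapl2 (-3.19), the ubiquitin ligase Marchf1 (-2.97), the protease Adamts3 (-2.82) and the calcium-binding protein Necab1 (-2.80 for ENSRNOG00000066027, while another gene of that symbol did not pass). Trabd2b, Sulf1 and Glis3 were near 0 in the selected nuclei and met the limit of 50 CPM only through the other nuclei. In the tested libraries Trabd2b was at 0 to 8.79 CPM and Sulf1 at 0 to 32.3 CPM. Glis3 was at 0 CPM in Sham L, Sham R, mMCAO ipsi and sMCAO contra. Nothing is read from the size of their changes.

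**Figure D3:**
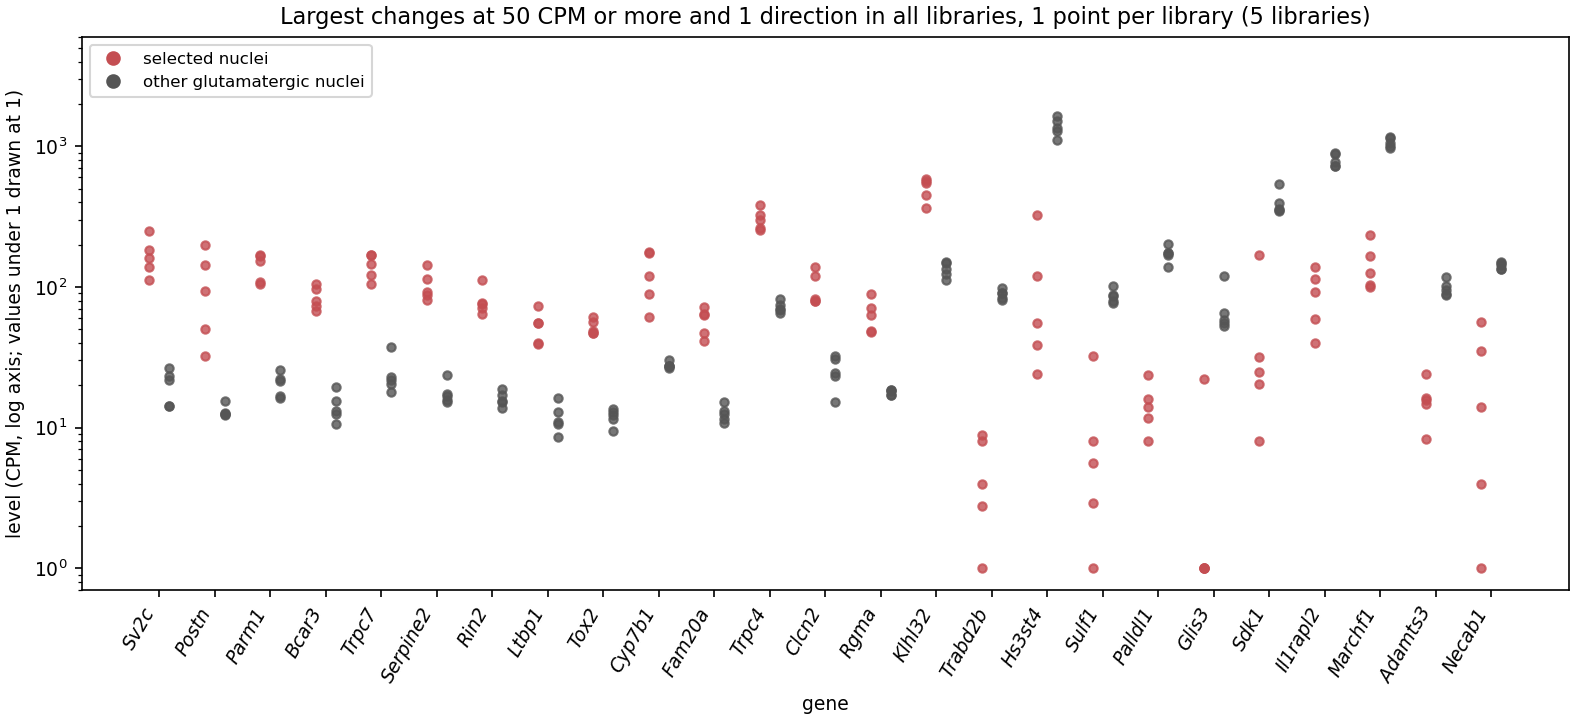
Levels in CPM, on a log axis with values under 1 drawn at 1, of the 25 genes with the largest changes among those with at least 50 CPM on the higher side and 1 direction in every library, with 1 point for each of the 5 libraries tested in selected (red) and other glutamatergic nuclei (grey). Sv2c averaged 168 CPM against 19.9 CPM, and Hs3st4 112 CPM against 1381 CPM.

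Channels and receptors moved in both directions, and their counts stand beside 3.19% higher and 5.56% lower of all genes tested. Of 30 genes on the potassium channel list, 4 were higher and 12 lower. Among the former, Kcna1, Kcna2 and Kcnn2 were higher by 0.65, 1.13 and 0.65. The Kv3 channel genes Kcnc1 (-1.56) and Kcnc2 (-2.72), the A-type channel gene Kcnd3 (-1.37) and Kcnt2 (-1.75) were lower. Of 23 sodium and calcium channel genes, 5 were higher, among them Cacna1h (1.74), which encodes a T-type calcium channel, Cacna2d2 (1.38), Scn2b (1.05) and Scn4b (1.10), and 5 were lower, namely Cacna1c (-0.89), Cacna1e (-0.64), Cacna2d1, Cacnb2 and Scn3b.

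With the same shares over all genes, of 24 glutamate receptor genes Grm8 (0.81) and Grin3a (1.09) were higher, and Grm3, Grik1, Grik3, Grik4 and Gria4 lower, the last by 1.42 on the log2 scale. Of 16 GABA receptor and chloride transport genes, none was called higher, and Gabra4, Gabrb1 and the chloride importer Slc12a2 (-0.71) were lower. Among 19 genes of neuropeptides and modulator receptors, the adrenergic receptor Adra1b (0.74) and the serotonin receptors Htr1f (2.27) and Htr4 (0.81) were higher. Htr2a, the muscarinic receptors Chrm2 and Chrm3, and Cck were lower. Hcrtr2, also called lower, had 1 UMI in the selected nuclei and could be tested only through the other nuclei.

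Of 39 axon guidance genes, 7 were higher and 11 lower, beside 3.19% higher and 5.56% lower of all genes. The receptor Robo1 was the most abundant, at 3268 CPM against 1545 CPM (1.01, SE 0.08, adjusted p = 1.33e-37), and Robo3 (1.51), Sema3c (1.53), Ephb2 (1.34), Sema6d (0.70), Nrp1 (0.64) and Ntng1 (0.60) rose too. The netrin receptor Dcc (-2.14), Unc5d (-2.15) and Sema5a (-2.64) were among those lower. Of 6 neurofilament and axonal cytoskeleton genes, the neurofilament subunits Nefh (2.01), Nefl (1.28) and the related Ina (1.02) were higher and none lower, with a median of 1.08.

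Genes linked to those that chose the nuclei were called in both directions, beside 3.19% higher and 5.56% lower of all genes tested. Of 11 genes of polycystins and the primary cilium, Dzip1l, a cilium gene linked like Pkhd1 to recessive polycystic kidney disease, was higher (1.18, SE 0.29, adjusted p = 0.000624), and Bicc1 was lower (-0.62). Pkd1, which encodes polycystin, did not pass (0.27, adjusted p = 0.126). Of 15 genes of CFTR partners and anion transport, Clcn2 was higher, and the protein kinase A subunit Prkar2b (-0.92) and the bicarbonate cotransporter Slc4a4 (-1.47) were lower. Clcn2 was at 82.1 and 80.0 CPM in Sham, 119 and 137 CPM in MCAO contra and 78.9 and 19.3 CPM in MCAO ipsi, against 15.1 to 32.5 CPM, so that only sMCAO ipsi fell among the values of the others. None of 13 activity genes, 10 heat shock genes or 7 injury genes was called, and of 15 glycolysis and hypoxia genes Vegfa was higher (0.70), a call that did not pass against nuclei of matched depth (adjusted p = 0.277). Against nuclei of matched depth Etv1, Abi3bp, Ppp1r1b, Scn4b, Scn3b, Adra1b, Htr2a, Slc12a2 and Bicc1 did not pass either, with adjusted p-values from 0.0504 (Htr2a) to 0.96 (Abi3bp), and Tshz2, Mpped1, Sema6d, Cacna1e and Chrm3 passed but fell below the fold limit.

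Much of this profile belonged to the leading cluster as a whole. The selected nuclei in it were therefore compared with its other 1534 nuclei, a comparison added after the data were seen. Of 6839 genes tested, 1.16% were higher (79) and 1.55% lower (106). None of 10 layer 5 extratelencephalic genes was called higher and Crym was lower (-1.54). Of 4 near-projecting genes, Vwc2l (1.55) and Tshz2 (0.81) were higher and Lypd1 (-1.14) was lower, and the summed level of that list was 497 CPM in sub-cluster A, 160 CPM in B and 171 CPM in C. Bcl11b was at 263 CPM in the selected nuclei, 289 CPM in sub-cluster B and 265 CPM in sub-cluster C, and Fezf2 at 25.5, 33.7 and 25.4 CPM, so that these regulators were shared by the cluster.

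Among genes with at least 50 CPM on the higher side and 1 direction in every library, those with the largest increases over the rest of the cluster were Postn (1.67), Vwc2l (1.55), Sv2c (1.48), Robo3 (1.35), Mctp2 (1.25), Ltbp1 (1.23), Tbc1d1 (1.13), Fstl4 (1.08), Adamts17 (1.01) and the heparan sulfate sulfotransferase Hs6st3 (1.0), followed by Epb41l2, Lhfpl6, Eda, Tgfbr1 and Adamts6. Vwc2l was at 196 and 320 CPM in Sham, 183 and 419 CPM in MCAO contra and 289 and 50.9 CPM in MCAO ipsi, against 78.9 and 71.8, 87.1 and 135, and 84.8 and 38.5 CPM in the cluster's other nuclei (SE 0.12, adjusted p = 4.66e-16). It was higher in every library. Under the same limits the largest decreases were Col23a1 (-2.54), the glycine receptor subunit Glra3 (-2.27), Hs3st4 (-2.22), Palldl1 (-2.07), the guanine deaminase Gda (-1.74), the kainate receptor subunit Grik4 (-1.73), Man1a1, Marchf1, St6galnac5 and Ptpre. Of the 21 genes named against all other glutamatergic nuclei that could be tested here, 12 had an adjusted p under 0.05.

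These differences followed the sub-clusters. Sv2c was at 155 CPM in the selected nuclei and 169 CPM in the nuclei of sub-cluster A that were not selected, but at 8.56 CPM in B and 41.3 CPM in C. Postn was at 97.2 and 102 CPM against 2.85 and 19.9 CPM, Robo3 at 121 and 125 CPM against 10.6 and 39.8 CPM, and Vwc2l at 242 and 260 CPM against 22.1 and 36.5 CPM. Klhl1, at 133 and 107 CPM, was instead higher in B (301 CPM) and C (363 CPM), and Cwh43, at 7.17 and 7.72 CPM, likewise (35.8 and 36.8 CPM). Pkhd1 itself was at 76.8 CPM in the nuclei of sub-cluster A that were not selected, 18.7 CPM in B, 36.5 CPM in C and 3.53 CPM outside the leading cluster, and Cftr at 35.2, 29.3, 23.2 and 0.671 CPM. These levels are a description, since the sub-clusters were made from the same cells.

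Inside sub-cluster A 1 gene was called. Of 4371 genes tested, 0% were higher and 0.0229% lower, the latter the myelin gene Mbp alone (52.9 ± 14.3 against 116 ± 31.7 CPM, SD, n = 5 libraries, log2 fold change -1.24, SE 0.22, adjusted p = 0.00172 by edgeR). Mbp was named after its value was seen. Other oligodendrocyte genes were sparse. Over all 147 selected nuclei, of which 106 lay in sub-cluster A, they were also lower than in the rest of A. Mobp was at 4.78 against 20.2 CPM, Mog at 3.98 against 18.4 CPM and Mag at 0.796 against 10.3 CPM. The part of oligodendrocyte transcripts in the call was not tested. At an unadjusted p under 0.05 there were 117 higher and 115 lower genes, and DESeq2 called none.

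**Figure D4:**
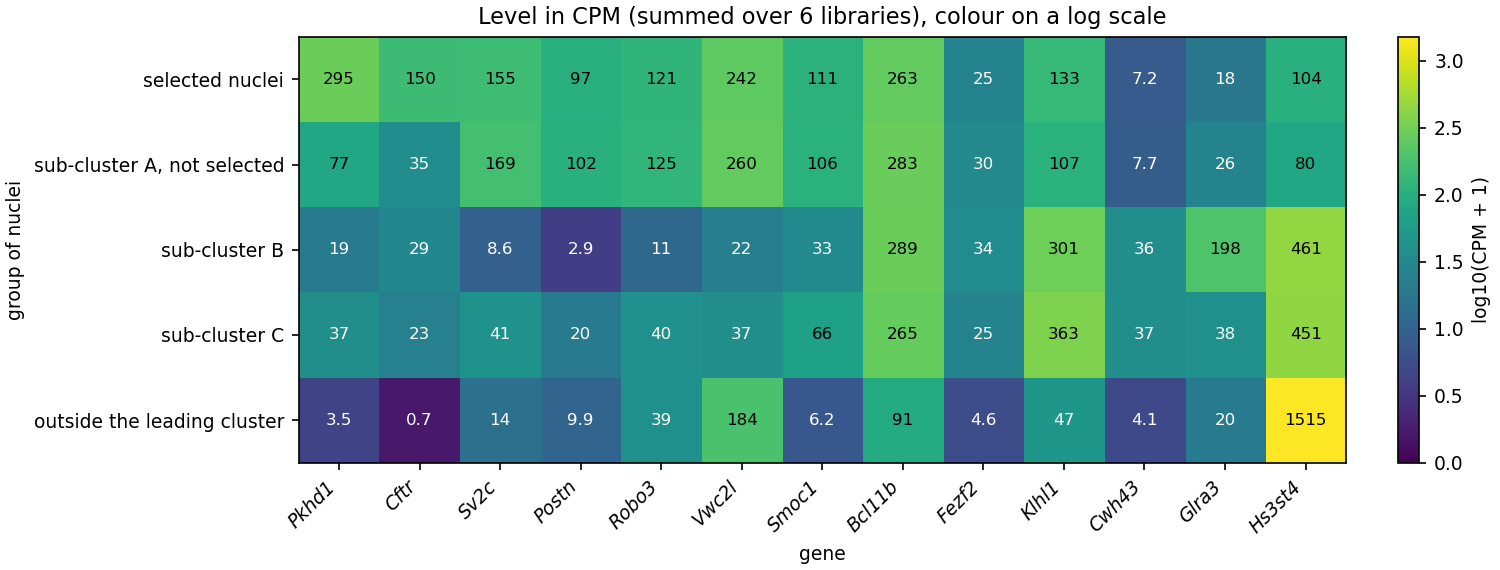
Levels in CPM, summed over the 6 libraries and coloured by log10 of CPM plus 1, of 13 genes (columns) in the selected nuclei, the rest of sub-cluster A, sub-clusters B and C, and nuclei outside the leading cluster (rows). Sv2c, at 155 and 169 CPM in the top rows, fell to 8.56 CPM in B and 41.3 CPM in C, while Klhl1 and Cwh43 were highest in B and C.

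Whether Pkhd1 and Cftr changed after MCAO cannot be read from nuclei chosen for them, so it was tested on all nuclei of the leading cluster in all 6 libraries, a fit added after the data were seen. Pkhd1 was at 67.0 and 70.2 CPM in Sham, 58.8 and 82.1 CPM in MCAO contra and 56.8 and 14.7 CPM in MCAO ipsi. Cftr was at 38.3 and 35.4 CPM in Sham, 51.0 and 44.0 CPM in MCAO contra and 33.2 and 9.48 CPM in MCAO ipsi. For both genes sMCAO ipsi was the lowest, with 14 and 9 UMIs, and mMCAO ipsi was the next lowest. The margin of mMCAO ipsi was small, with 142 Pkhd1 UMIs against 144 in mMCAO contra, and 33.2 CPM of Cftr against 35.4 CPM in Sham R. The differences of MCAO ipsi from Sham did not pass the test after adjustment (Pkhd1 log2 fold change -0.74, SE 0.31, adjusted p = 0.188, Cftr -0.59, SE 0.31, adjusted p = 0.302), nor did those of MCAO contra from Sham (adjusted p = 0.902 and 0.794). Against MCAO contra, Cftr was lower by 0.85 (adjusted p = 0.162), and with the rat pool as block by 0.88 (SE 0.25, adjusted p = 0.0377), whereas Pkhd1 did not pass either way (adjusted p = 0.394 and 0.24). At 3000 UMIs per nucleus the share with a UMI of either gene was 25.5 and 22.1% in Sham, 20.8% and 48 of 160 nuclei in MCAO contra, and 17.5 and 5.13% in MCAO ipsi (the latter 4 of 78, 1.41 to 12.6%). Unthinned, the shares were 37.8 and 28.3% in Sham, 38.0 and 38.2% in MCAO contra and 35.1 and 15.2% in MCAO ipsi. Sub-cluster A, where both genes were highest, held 8 of the 79 nuclei of the leading cluster in sMCAO ipsi and 110 of 357 in Sham L, and its part in these levels was not tested.

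For other genes the selected nuclei were compared between conditions in 1 fit of 5 libraries, in which MCAO ipsi is mMCAO ipsi alone and is assumed to vary between libraries like the other groups. In mMCAO ipsi 18 of the 28 selected nuclei of the leading cluster lay in sub-cluster A and 10 in C, and in Sham L 29 of 36 lay in A. Of 5426 genes tested, 0.147% were higher (8) and 0.111% lower (6) in MCAO ipsi than in Sham. DESeq2 called 2 of these 14, Pde10a and Pdzd2.

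Pde10a, a phosphodiesterase that degrades cyclic AMP and cyclic GMP, was at 1524 and 1448 CPM in Sham, 939 and 1318 CPM in MCAO contra and 493 CPM in mMCAO ipsi, and at 482 CPM in the 4 nuclei of sMCAO ipsi. Both ipsi libraries lay below all others (log2 fold change -1.56, SE 0.21, adjusted p = 2.2e-09). Pdzd2, a protein with several PDZ domains, was at 653 and 712 CPM in Sham, 561 and 630 CPM in MCAO contra and 217 and 231 CPM in MCAO ipsi (-1.60, SE 0.27, adjusted p = 4.26e-06), again lowest in both ipsi libraries. The other nuclei of the leading cluster, tested over all 6 libraries, had the same direction (Pde10a -1.60, adjusted p = 1.56e-05, Pdzd2 -1.54, adjusted p = 3.84e-06). The effect on Pde10a did not differ detectably between the selected and the other glutamatergic nuclei (log2 difference 0.08, adjusted p = 1 by edgeR), and that on Pdzd2 did not either after adjustment (-0.93, adjusted p = 1).

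Of the 8 genes that were higher in MCAO ipsi, Plekhh2 was at 67.4 and 24.0 CPM in Sham, 49.998 and 40.4 CPM in MCAO contra and 170 and 135 CPM in MCAO ipsi (log2 fold change 1.65, SE 0.38, adjusted p = 0.00801). Efr3a, which anchors a phosphatidylinositol kinase at the plasma membrane, was at 155 and 120 CPM in Sham, 192 and 291 CPM in MCAO contra and 382 and 212 CPM in MCAO ipsi (1.43, SE 0.28, adjusted p = 0.000466), and sMCAO contra lay above sMCAO ipsi. Synpr, the synaptic vesicle protein synaptoporin, was at 41.0 and 32.0 CPM in Sham, 41.7 and 56.6 CPM in MCAO contra and 146 and 116 CPM in MCAO ipsi (1.94, SE 0.41, adjusted p = 0.0024), with both ipsi libraries above all others. All 3 rose in the other nuclei of the leading cluster as well, by 1.88, 1.27 and 0.77. The cluster's make-up differed between libraries, with 195 of its 345 nuclei in sub-cluster C in mMCAO ipsi and 76 of 357 in Sham L. Plekhh2 was at 257 CPM in C, 166 CPM in B and 80.6 CPM in the nuclei of A that were not selected, and Efr3a at 305, 249 and 212 CPM, and the part of the make-up in these changes was not tested. The other increases were Ubxn4 (2.40), the protease inhibitor neuroserpin Serpini1 (1.89), Scai (1.21), the protein kinase A anchor Sphkap (1.19) and utrophin Utrn (1.10), and the other decreases were Cfap61 (-2.71), Sgsm1 (-2.35), Kazn (-1.03) and Thsd7a. The 4 nuclei of sMCAO ipsi, which were not in that fit, did not follow in several of these genes. Serpini1 was at 19.3 CPM there and at 29.3 and 24.0 CPM in Sham, Scai at 173 CPM and at 170 and 176 CPM, Sgsm1 at 116 CPM and at 79.1 and 96.0 CPM, and Kazn at 501 CPM and at 642 and 408 CPM. Scai was not called in the other nuclei of the cluster either (0.085, adjusted p = 0.803). Without Sham L 5 genes were called. With the 4 nuclei of sMCAO ipsi added, Pde10a and Pdzd2 were the 2 genes called, and Plekhh2, Efr3a and Synpr had adjusted p-values of 0.357, 0.357 and 0.169. Of the 14 calls, 8 were also called in the other nuclei of the leading cluster, where 2.05% of 10449 genes were higher and 1.92% lower.

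Thsd7a, a membrane protein with thrombospondin repeats, had 39 and 5 UMIs in Sham, 6 and 2 UMIs in MCAO contra and 0 and 4 UMIs in MCAO ipsi. These were 114 and 39.989 CPM in Sham, 16.7 and 16.2 CPM in MCAO contra and 77.1 CPM in the 4 nuclei of sMCAO ipsi, which lay between the Sham libraries. With 0 UMIs in mMCAO ipsi the limit of 3 counts is 11.8 CPM. The call against Sham (adjusted p = 2.71e-05 by edgeR) rested on mMCAO ipsi alone, and the 5 UMIs of Sham R came from 1 nucleus and the 39 of Sham L from 7.

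**Figure D5:**
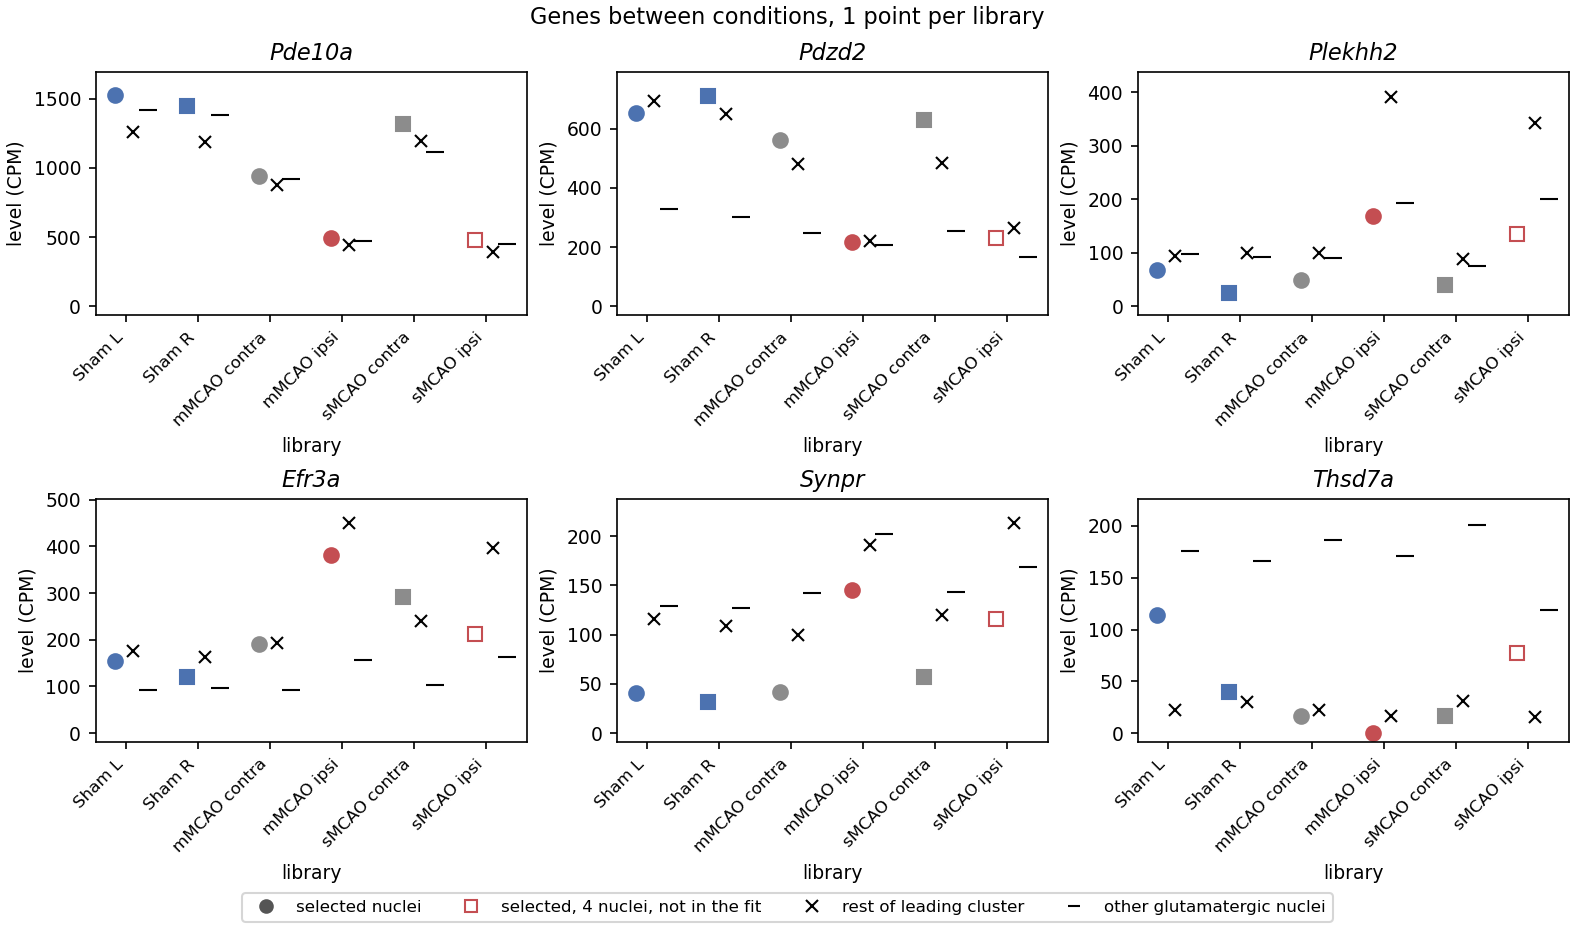
Levels in CPM of 6 genes by library, with filled symbols for the selected nuclei, open squares for the 4 selected nuclei of sMCAO ipsi (not tested), crosses for the rest of the leading cluster and dashes for the other glutamatergic nuclei. Pde10a was lowest in both ipsi libraries in the selected nuclei (493 and 482 CPM) and in the rest of the cluster, and Plekhh2 highest.

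Between the hemispheres of the MCAO rats, 0.276% of genes were higher (15) and 0.129% lower (7) in MCAO ipsi. DESeq2 called 1 gene, Galntl6, and edgeR called 2 genes in nuclei with 2 UMIs or more of Pkhd1 and Cftr and 0 with all 6 libraries, where an unadjusted p under 0.05 was reached by 120 positive and 115 negative changes. Plekhh2 (1.93), Synpr (1.76) and Sphkap (1.04) were again higher, and Pde10a (-1.04), Pdzd2 (-1.33), Cfap61 (-2.53) and Sgsm1 (-2.36) again lower. This comparison shares the mMCAO ipsi library with the one above. Contra and ipsi libraries of 1 severity come from the same rats. With the rat pool as replicate block, some of the genes named here lost their call. Postn was at 49.998 CPM in mMCAO contra and 32.3 CPM in sMCAO contra against 197 CPM in mMCAO ipsi (2.21, SE 0.38, adjusted p = 3.46e-05), and had no UMI in sMCAO ipsi. Cyp7b1 (1.43), Zfhx4 (1.37), Smoc1 (1.33), Sema3c (1.24), the cadherin Cdh13 (0.91) and Galntl6 (0.86) were higher and Nxph1 (-3.86) and Pcdh15 (-1.20) lower. In sMCAO ipsi, not in this fit, Smoc1 had no UMI, Cyp7b1 was at 38.5 CPM and Sema3c at 77.1 CPM, each below both contra libraries. Cdh13, at 289 CPM, and Galntl6, at 2928 CPM, lay between these libraries, and Pcdh15, at 1002 CPM, above them. Of 23 Nxph1 UMIs in mMCAO contra, 14 came from 1 nucleus. Of the Pcdh15 UMIs, 1 nucleus held 63 of 177 in mMCAO contra and another 35 of 59 in sMCAO contra. Cyp7b1 and Pcdh15 had the opposite sign in the other nuclei of the leading cluster (-0.59 and 0.66). In these nuclei 1.45% of genes were higher and 0.957% lower.

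In the hemisphere opposite the occlusion, 0.129% of genes were higher (7) and 0.0737% lower (4) than in Sham. DESeq2 called none, with 10 higher and 31 lower genes at an unadjusted p under 0.05. Of the higher genes, 4 were mitochondrial transcripts or AY172581.24, named after their values were seen (Mt-co1 1.66, Mt-co3 1.58, Mt-cyb 1.60, AY172581.24 1.34). Mt-co1 was at 161 CPM in mMCAO contra but at 32.3 CPM in sMCAO contra, against 32.2 and 48.0 CPM in Sham, and AY172581.24 at 311 and 97.0 CPM against 85.0 and 104 CPM, so that for both genes the groups overlapped. In the other nuclei of the leading cluster AY172581.24 had the opposite sign (-1.15). The median mitochondrial share of the selected nuclei was 0.0113 and 0.0175% in Sham and 0.0250 and 0.0306% in MCAO contra, and its part in these calls was not tested. Erbb4 was called lower (-1.12), but its groups overlapped too, with 270 and 96.0 CPM in Sham and 108 and 88.9 CPM in MCAO contra. The other calls were the chaperone Hsp90aa1 (2.46), the respiratory chain subunit Ndufc1 (2.13) and Pcdh15 (0.84, with the nuclei named above), which were higher, and Thsd7a (-2.50), the pyrimidine-degrading enzyme Dpyd (-1.75) and Cdh13 (-0.86), which were lower. Of the 28 Hsp90aa1 UMIs in mMCAO contra, 15 came from 1 nucleus. In the other nuclei of the leading cluster 0% of 10449 genes were called by edgeR, where 477 had a positive and 535 a negative change with an unadjusted p below 0.05.

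Few stress genes were abundant enough to test between conditions, and their counts are given beside the shares over all genes above. Of the genes abundant enough to test in the selected nuclei, none of 1 activity gene, 6 heat shock genes, 8 glycolysis and hypoxia genes and 3 injury genes was called between MCAO ipsi and Sham or MCAO ipsi and MCAO contra, and Hsp90aa1 was the only call between MCAO contra and Sham. The difference of the MCAO ipsi effect between selected and other glutamatergic nuclei was tested for 14573 genes, of which 0% were called with a positive and 0.00686% with a negative difference, the latter being Thsd7a alone. At an unadjusted p under 0.05 there were 272 positive and 201 negative differences.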

How the data were processed

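The deposited values are raw UMI counts per gene and nucleus, which the authors made with Cell Ranger 7.0.0 (named in the submitters' processing notes) using the mRatBN7.2 assembly and counting intronic reads (10x chemistry that reads the 5' end). SoupX correction, filters and doublet removal described in the methods are not part of these counts. The deposited libraries held 44214966 (Sham L), 34777290 (Sham R), 52513380 (mMCAO contra), 44829633 (mMCAO ipsi), 34519202 (sMCAO contra) and 33012945 UMIs (sMCAO ipsi).

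Nuclei were selected by the rule given above. The selected nuclei and all gene lists were chosen with earlier results of these data known. Glutamatergic nuclei were log-normalised and clustered on 3000 variable genes without the rule's genes, 30 principal components and 15 neighbours (Leiden resolution 1, alternatives 0.5 and 2, leidenalg 0.10.2). UMIs were summed per library and set of nuclei where a library had at least 10 selected nuclei, and tested with edgeR 4.0.16 in R 4.3.3 (TMM, filterByExpr, quasi-likelihood F test) with Benjamini-Hochberg adjustment over all genes tested except those of the rule. The fold limit was that of the study, which tested nuclei as replicates with MAST. The SE of a log2 fold change is its size divided by the square root of F. On simulated counts the test recovered 47.2% of genes changed by 1 and 79.3% of genes changed by 2 on the log2 scale between selected and other nuclei, and 22.2 and 67.3% between MCAO ipsi and Sham.

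Genes were named by size of change among calls with at least 50 CPM on the higher side and the same direction in every library (15 higher and 10 lower) or groups that did not overlap (10 and 10 per comparison of conditions), besides the rule's genes and members of the lists. Genes without a symbol were left out of this naming. Alternatives were DESeq2 1.42.0, no filter on low counts, other UMI thresholds, nuclei of matched depth, removal of the 5% most doublet-like nuclei, other blocks and leaving out each library. Contra and ipsi libraries of 1 severity come from the same rats, which is why the rat pool was tried as block. Genes on the lists that the files do not name were not analysed here. Results for some other genes of the lists are not reported here.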

Additional observations from a re-analysis of the deposited data

Results flagged for a closer look

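The change of Thsd7a between Sham and MCAO ipsi differed between the selected and the other glutamatergic nuclei, by a test of the difference itself (log2 difference -12.56, SE 2.18, adjusted p = 0.000131 by edgeR, 5 libraries). Thsd7a was at 176 and 166 CPM in the Sham libraries and 171 CPM in mMCAO ipsi in the other glutamatergic nuclei, and at 114, 39.989 and 0 CPM in the selected ones. The size of the fitted difference rests on the 0 in mMCAO ipsi and is no bound. Of the 39 UMIs of Sham L, 14 came from nuclei outside the leading cluster, and 7 of its 38 selected nuclei had any. Without Sham L the difference was not called, and DESeq2 did not call it.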

How the results depend on the processing

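The comparison of selected with other glutamatergic nuclei had between 786 and 1110 calls under every alternative but 1, against 1077, with the lowest in DESeq2 (747 of them among the 1077) and 796 against nuclei of matched depth (755 of them). At 5 UMIs or more of Pkhd1 and Cftr, where only Sham L and mMCAO contra had enough nuclei, it gave 403. Fam20a lost its call there, and all other calls of the 25 named genes held under all alternatives run. Within the leading cluster DESeq2 called 114 genes, against 185, and within sub-cluster A 0 against 1. At resolution 2 the cluster with most selected nuclei held 72.1% of them.

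Calls between conditions depended on the settings. MCAO ipsi against Sham had 14 calls, with 2 in DESeq2, 6 without a filter, 3 at 2 UMIs or more, 2 with all 6 libraries, 5 to 16 with 1 library left out, and 415 in the other nuclei of the leading cluster. Pde10a and Pdzd2 were called under all of them. MCAO ipsi against MCAO contra had 22 calls, with 1 in DESeq2, 3 without a filter, 13 without doublet-like nuclei, 2 at 2 UMIs or more, 0 with all 6 libraries, 14 to 35 with 1 library left out (35 without mMCAO contra), and 252 in the other nuclei of the cluster. With the rat pool as replicate block it had 16 calls, 12 of them shared, and 400 in the other nuclei. MCAO contra against Sham had 11 calls, with 0 in DESeq2, 3 without a filter, 1 with only these groups fitted, 18 without doublet-like nuclei, 0 at 2 UMIs or more, 0 with all 6 libraries, 1 to 18 with 1 library left out (1 without mMCAO ipsi, 2 without Sham L, 18 without mMCAO contra, 5 without sMCAO contra), and 0 in the other nuclei. The difference of the effect on Thsd7a had 0 calls in DESeq2 and 0 to 1 with 1 library left out. Signs reversed for Cyp7b1 (-0.59, and -0.62 with the block) and Galntl6 (-0.014 with the block) in the other nuclei, and for Pcdh15 (0.19 at 2 UMIs or more, 0.66 and 0.63 in the other nuclei). In MCAO contra against Sham the sign reversed for AY172581.24 (-1.15 in the other nuclei), and without Sham L 9 of the 10 calls tested kept their sign. The causes were not tested. The fit with all 6 libraries, those of the other nuclei and those within clusters were chosen after seeing the data.

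The share in MCAO ipsi relative to Sham ran from 0.401 (without mMCAO ipsi) to 1.10 with 1 library left out, and relative to MCAO contra from 0.405 (without mMCAO ipsi) to 1.063, and at 5 UMIs or more the latter was 0.449. With 4 to 38 selected nuclei per library, small changes of sparse genes may have been missed. On simulated counts between MCAO ipsi and Sham, 22.2% of genes changed by 1 on the log2 scale were recovered. Recovery by abundance was not tested.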
